A study of Mus musculus with 15 samples.

Results

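Mouse embryonic fibroblasts (MEFs) of the third generation that carry p53 N236S (G3TM, 3 libraries) were set against those of the first generation with the same genotype (G1TM, 2 libraries). These are 5 of the 15 polyA RNA-seq libraries of the series. Every animal line lacks the telomerase RNA gene (mTR-/-) and the Werner helicase (Wrn-/-). The TM groups are also homozygous for the p53 allele N236S, and the DM groups have wild-type p53. Groups G1, G3 and G5 name successive generations of breeding without telomerase. The other 10 libraries are G5TM (3), G3DM (2), G1DM (2) and G5DM (3). The MEFs were taken from E13.5 embryos and grown in DMEM with 10% serum at 37 °C in 5% CO2 and 3% O2. Wild-type MEFs and MEFs with p53 N236S alone, named in the design as controls, were not analysed here. The labels do not say whether replicates came from separate embryos, so p-values measure only the spread between these samples, which may be technical. The study asks how this p53 allele alters ageing phenotypes of Werner syndrome cells, and its title points to the DREAM and MMB complexes and to telomere replication.

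Telomerase adds telomere repeats with the help of its RNA subunit, and mice without that RNA lose telomere sequence over generations. WRN is a RecQ helicase that helps replication forks pass structured DNA such as telomere repeats. Short telomeres set off a DNA damage response in which p53 induces Cdkn1a, and the p21 protein made from it keeps pocket proteins active. The DREAM complex, made of the MuvB core with a pocket protein and E2F4 or E2F5, then represses cell cycle genes. In cycling cells MuvB joins B-MYB (Mybl2) as MMB and FOXM1 and activates G2/M genes through promoter elements called CHR.

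The table gives FPKM, that is, fragments per kilobase of gene length, scaled by a size for each library. Reads recovered from the FPKM steps came to 18146537 to 26292651 in G3TM libraries and to 22803722 and 29571111 in G1TM libraries. The sizes implied by these steps were 26306206, 14722711 and 15188993 in G3TM and 24293654 and 29725240 in G1TM. The scaling was thus not by recovered reads alone. Between 19758 and 21667 genes were above 0 in G3TM libraries, against 23329 and 22975 in G1TM libraries. The summed FPKM was 304918, 425814 and 404218 in G3TM and 235622 and 260344 in G1TM. FPKM sums over lists therefore rest on unequal totals. The 3 G3TM libraries had FPKM sums over Y-linked genes of 4.52, 3.06 and 2.40 with Xist at 0, whereas both G1TM libraries had Y-linked sums of 0 and Xist at 26.9 and 18.1 FPKM. Generation and sex of the cells therefore cannot be told apart in this comparison. Terc, the gene of the telomerase RNA, was listed at 0 in all 5 libraries. Wrn had 0.165, 0.0447 and 0.130 FPKM in G3TM and 0.466 and 0.275 FPKM in G1TM, below the level needed for testing. Trp53 had 52.1, 95.5 and 96.6 FPKM in G3TM and 42.0 and 53.8 FPKM in G1TM, and the groups overlapped (difference 0.71 ± 0.32 SE, adjusted p = 0.0766).

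A gene was tested when at least 2 of the 5 libraries reached 1 FPKM, which left 12041 genes. A gene below 1 FPKM throughout either group passed only through the other group, so its direction was largely fixed by the filter. This bears on lists with many low members, such as cell type markers and pseudogenes. Differences are G3TM minus G1TM on the log2(FPKM + 1) scale, which understates the change of low genes, and a gene was called at a limma adjusted p under 0.05. Of the tested genes 6319 (52.5%) were called, 3464 (28.8%) higher and 2855 (23.7%) lower in G3TM. Without regard to the test, G3TM lay above G1TM with no overlap for 4849 genes (40.3%) and below it for 4163 (34.6%). The difference exceeded 2-fold for 1964 of the genes that rose and for 1367 of those that fell. The median over all tested genes was 0.10, and quantile normalization moved it to -0.01, a shift of about 0.1 on the log2 scale. Outside the ribosomal, mitochondrial and histone classes, 6045 of 11662 genes (51.8%) were called, 3218 (27.6%) higher and 2827 (24.2%) lower. With counts this high, a list is described below against these shares, and a share near them is not a result about the list. The lists and their members were chosen with earlier results of these data known.

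G3TM shared much of its distance from G1TM with the G5TM libraries. Of the 3464 genes higher in G3TM, 2077 (59.96%) had all 6 G3TM and G5TM libraries above the other 9 libraries. Of the 2855 lower genes, 956 (33.5%) had these 6 libraries below the other 9. Without regard to calls, 2292 of the 12041 tested genes had these 6 libraries above the other 9, and 1141 had them below. G3TM and G1TM lie on opposite sides of this library division. The division and the generation difference therefore cannot be told apart in this comparison. With wild-type p53, 10 of the same 12041 genes (0.083%) were called between G3DM and G1DM, 9 higher (0.0747%) and 1 lower (0.0083%). Filtered on its own 4 libraries, the DM contrast had 38 of 11955 genes called (0.318%), 31 higher (0.259%) and 7 lower (0.0586%). That count rested on the spread shared by all libraries: it was 1504 when replicate 1 of G5DM, which is in neither group, was left out, and 2 without replicate 1 of G1DM. The sign of the DM difference matched that of TM for 3113 of the higher genes (89.9%) and for 2429 of the lower genes (85.1%). The same share over all tested genes was not taken. Both contrasts moved the same way with GC content, as given below, and the part of GC content in this match was not tested. A test of the difference between the TM and the DM change, the interaction of generation with p53 genotype, called 338 genes (2.81%), 219 with a more positive (1.82%) and 119 with a more negative change (0.988%) in TM. This count was 81 without replicate 1 of G1TM, 858 without replicate 1 of G5DM and 1213 without replicate 1 of G3TM.

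Transcript length and base composition moved with the difference. With genes cut by length into 5 equal groups, the shortest (45 to 1880 bases) had a median difference of 0.69, and 47.4% of them were higher in G3TM. The longest (7129 to 41155 bases) had a median of -0.54, and 50.7% of them were lower. By GC content of the longest transcript, cut likewise, the highest group (55.8 to 86.2%) had a median of 0.87 and the lowest (18.1 to 44.3%) a median of -0.79. In the DM contrast the medians were 0.38 in the highest and -0.53 in the lowest GC group. When the length and GC trend was removed from each library, a step chosen after seeing the data, 3761 of 12036 genes (31.2%) were called, 2021 (16.8%) higher and 1740 (14.5%) lower. Of these calls, 1488 higher and 1079 lower ones were shared with the fit on log2(FPKM + 1), and 91 genes were called in opposite directions. List counts after this step are given below beside the first counts. The counts also depended on replicate 1 of G1TM. Without it, on the assumption that the lone G1TM library varies like the other groups, 1320 of the higher and 734 of the lower genes were called again. Without replicate 2 of G1TM 2353 genes were higher and 1939 lower, against 2435 and 1952 without replicate 2 and 2472 and 1994 without replicate 3 of G3TM.

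**Figure D1:**
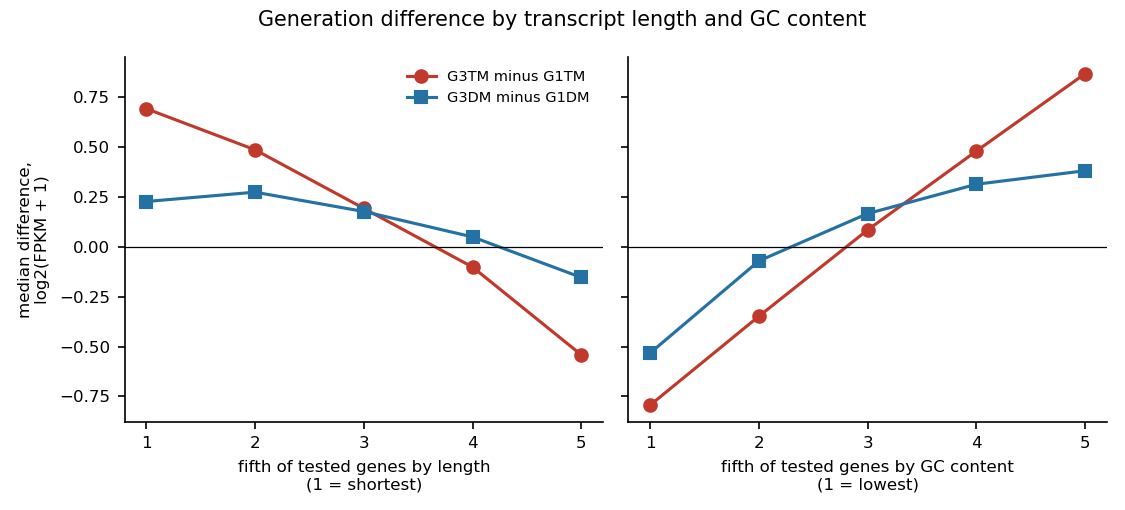
Median difference in log2(FPKM + 1) over 5 equal groups of the tested genes by listed length (left) and by GC content (right), for G3TM minus G1TM (red circles) and G3DM minus G1DM (blue squares). The TM line falls with length to -0.54 and climbs with GC content to 0.87, and the DM line spans a smaller range, from 0.23 in the shortest and 0.27 in the next group to -0.15 in the longest.

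Cytosolic ribosomal protein genes, which encode the proteins of the 80S ribosome, were higher in G3TM. Of 86 genes 83 were tested, 67 rose (80.7%) and 0 fell, with a median of 1.63, against 0.41 in the DM contrast. Their summed level was 37112, 66325 and 58039 FPKM in G3TM and 14285 and 17360 FPKM in G1TM, and the groups did not overlap. Rpl12, a protein of the large subunit, stood apart with 300, 569 and 483 FPKM in G3TM against 6.40 and 6.77 FPKM in G1TM (difference 5.85 ± 0.27 SE, adjusted p = 1.97e-08). All 7 DM libraries had 3.84 to 6.19 FPKM of Rpl12 and the G5TM libraries 382 to 610 FPKM. Rps29 had 490, 891 and 572 FPKM in G3TM against 34.7 and 39.5 FPKM in G1TM (4.05 ± 0.39, adjusted p = 2.95e-05). Rpl39 had 353, 746 and 647 FPKM in G3TM against 34.6 and 41.9 FPKM in G1TM (3.83 ± 0.39, adjusted p = 4.32e-05). The class was not uniform, since 16 tested members were not called, and the lowest difference in the class was -0.63. With the length and GC trend removed 57 rose and 1 fell, and without replicate 1 of G1TM 44 rose. With quantile normalization 54 rose and 6 fell. Of 298 ribosomal protein pseudogenes 85 were tested, 50 rose and 0 fell, with 29 and 5 after trend removal and 27 and 0 without replicate 1 of G1TM. These pseudogenes are near-copies of the coding genes, so the split of reads between them is uncertain; Rpl39-ps had 56.9, 126 and 145 FPKM in G3TM and 4.91 and 4.90 FPKM in G1TM.

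The nuclear genes for mitochondria moved in the same direction as the ribosomal protein genes. Of 77 tested mitochondrial ribosomal protein genes 51 rose and 4 fell (median 0.91; 45 and 5 after trend removal). Mrps24, of the small mitoribosomal subunit, had 34.5, 72.1 and 74.0 FPKM in G3TM and 9.07 and 10.8 FPKM in G1TM (2.41 ± 0.40, adjusted p = 0.000855). Mrpl1 fell, with 1.96, 0.601 and 0.613 FPKM in G3TM against 3.77 and 3.38 FPKM in G1TM (-1.21 ± 0.27, adjusted p = 0.00388). Of 82 tested nuclear genes for respiratory chain subunits 65 rose and 0 fell (median 1.39; 50 and 2 after trend removal). Their summed level was 5796, 9392 and 8802 FPKM in G3TM and 2478 and 2930 FPKM in G1TM. Atp5k, a small ATP synthase subunit, had 72.8, 122 and 104 FPKM in G3TM and 6.01 and 5.30 FPKM in G1TM (3.89 ± 0.38, adjusted p = 3.03e-05). Ndufa3 of complex I differed by 3.42 ± 0.24 (adjusted p = 1.45e-06) and Uqcr11 of complex III by 3.24 ± 0.38 (adjusted p = 0.000109). Without replicate 1 of G1TM the counts of higher genes were 22 for the mitoribosome and 42 for the respiratory chain.

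Genes on the mitochondrial genome went the other way for mRNA and the same way for rRNA. Of the 13 mRNAs 12 fell and 0 rose, with a median of -1.97, against 0.22 in the DM contrast. Their summed level was 4129, 2493 and 2633 FPKM in G3TM and 9854 and 10578 FPKM in G1TM, so the groups were far apart. The count was 11 after trend removal and 11 to 13 when any 1 library was left out. mt-Nd4l, a complex I subunit, had 3.07, 1.83 and 1.77 FPKM in G3TM and 37.7 and 35.8 FPKM in G1TM (-3.57 ± 0.27, adjusted p = 2.99e-06). mt-Atp6 of ATP synthase fell by 2.64 ± 0.40 (adjusted p = 0.000516) and mt-Co2 of cytochrome oxidase by 2.44 ± 0.27 (adjusted p = 7.57e-05) on the log2 scale. Both mitochondrial rRNAs rose. The small-subunit rRNA mt-Rnr1 had 59.9, 57.0 and 49.2 FPKM in G3TM and 0.517 and 0.740 FPKM in G1TM (5.11 ± 0.20, adjusted p = 3.43e-09). The large-subunit rRNA mt-Rnr2 had 44.7, 67.5 and 58.0 FPKM in G3TM and 1.72 and 2.85 FPKM in G1TM (4.14 ± 0.24, adjusted p = 2.67e-07). The 7 DM libraries lay at 0.488 to 1.31 FPKM for mt-Rnr1, and the G5TM libraries at 46.8 to 77.8 FPKM. Of 22 mitochondrial tRNAs 14 were tested, 2 rose and 7 fell, and after trend removal 2 rose and 0 fell. mt-Tl1, a leucine tRNA, was listed at 0 in both G1TM libraries and had 3.04, 5.43 and 6.14 FPKM in G3TM.

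Replication-dependent histone genes, whose mRNAs normally end without a polyA tail, split. Of 70 genes 23 were tested, 9 rose and 5 fell, and after trend removal 2 rose and 6 fell. All 5 genes that fell encode H2A, while another H2A gene, Hist3h2a, picked after its values were seen, was among those that rose. Hist1h2ao had 0.634, 2.12 and 3.98 FPKM in G3TM and 172 and 235 FPKM in G1TM (-6.10 ± 0.56, adjusted p = 1.62e-05). For that gene G1TM was also above the 7 DM libraries, at 15.8 to 52.8 FPKM, and G3TM was below all other 12 libraries. Hist1h2ap had 0.237, 0.423 and 0.137 FPKM in G3TM and 18.7 and 21.1 FPKM in G1TM (-4.05 ± 0.35, adjusted p = 1.17e-05). Hist1h4i, an H4 gene, had 10.0, 17.8 and 20.1 FPKM in G3TM and 2.77 and 2.78 FPKM in G1TM (2.11 ± 0.32, adjusted p = 0.000565). With replicate 1 of G1TM left out, 3 histone genes rose and 5 fell. The H2A genes are near-identical copies, and the assignment of reads among them is uncertain.

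**Figure D2:**
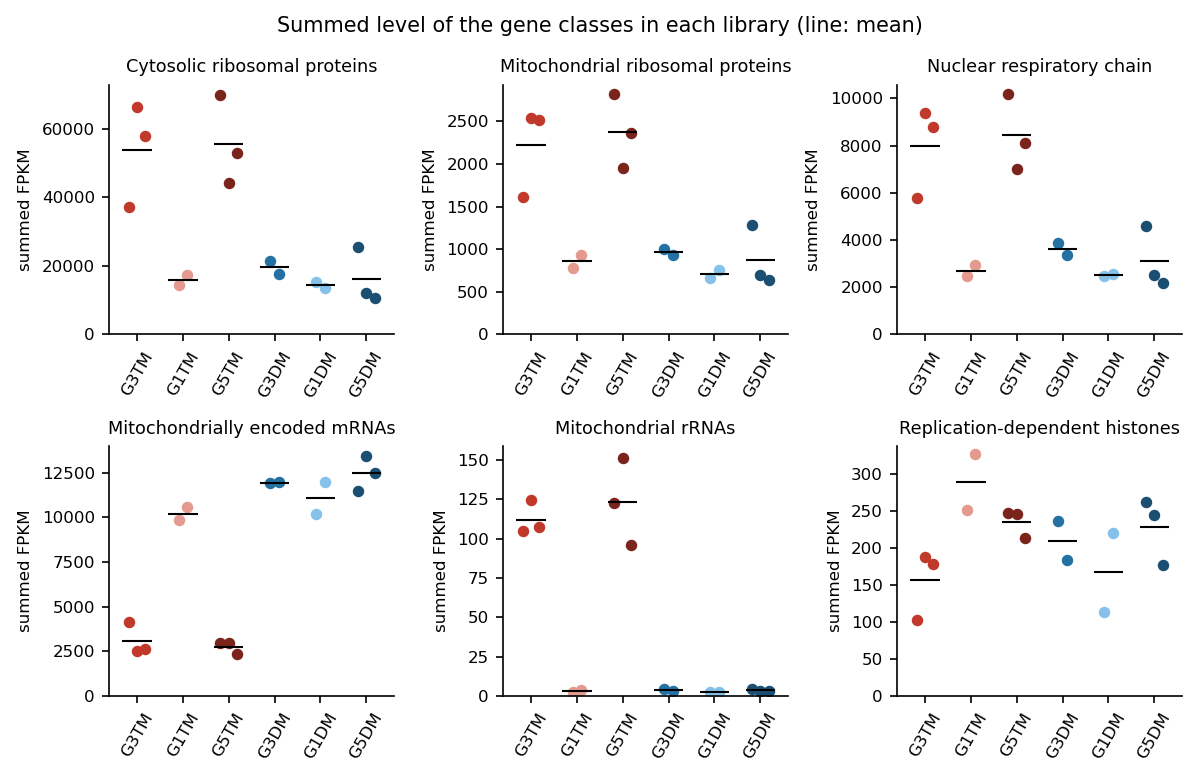
Summed FPKM of 6 gene classes in each of the 15 libraries, by group, with points for libraries and a line for the group mean. G3TM and G5TM lie together and apart from G1TM and the DM groups in the first 5 panels, for example at 95.7 to 151.3 FPKM of mitochondrial rRNA against at most 4.30 FPKM elsewhere. Histone sums are lowest in the first G3TM library, at 102.7 FPKM.

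The subunits of DREAM and MMB were mostly not called. Of 13 tested subunits 2 rose and 3 fell (median -0.29), and 8 were not called. Leaving out any 1 library gave 1 to 3 higher and 1 to 6 lower subunits, the most without replicate 1 of G3TM. Mybl2, the B-MYB subunit of MMB, had 19.05, 32.2 and 34.0 FPKM in G3TM and 10.4 and 14.3 FPKM in G1TM (1.11 ± 0.44, adjusted p = 0.0497), above the 1.91 to 5.55 FPKM of the 7 DM libraries. This call was lost in 16 of 26 alternative settings, with adjusted p up to 0.306. Lin37, of the MuvB core, had 7.89, 18.8 and 13.0 FPKM in G3TM and 4.42 and 4.39 FPKM in G1TM (1.32 ± 0.28, adjusted p = 0.00316), and the difference was 0.20 after trend removal (adjusted p = 0.344, the highest of its 26 alternative settings). Lin54, the MuvB subunit that binds CHR elements, had 3.28, 1.55 and 2.00 FPKM in G3TM and 6.91 and 6.14 FPKM in G1TM (-1.23 ± 0.26, adjusted p = 0.00288). Rbl1, the pocket protein p107, fell by 0.88 ± 0.25 (adjusted p = 0.0107) and Lin9 by 0.66 ± 0.23 (adjusted p = 0.0290). After trend removal these were at -0.12 for Rbl1 and 0.17 for Lin9, neither called. Foxm1 had 29.3, 30.5 and 35.4 FPKM in G3TM and 31.1 and 33.2 FPKM in G1TM (-0.02 ± 0.26, adjusted p = 0.950), and its sign turned under 5 settings. E2f1 had 26.8, 39.97 and 38.1 FPKM in G3TM and 15.3 and 16.8 FPKM in G1TM (1.06 ± 0.22, adjusted p = 0.00288), and Rb1 fell by 0.87 ± 0.27 (adjusted p = 0.0180). Among 7 genes of the E2F and RB list these were the 2 that were called, and neither was called after trend removal.

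The G2/M genes, which DREAM represses and MMB with FOXM1 activates, moved in both directions. Of 58 tested 12 rose (20.7%) and 19 fell (32.8%), against 28.8% and 23.7% of all genes, with a median of -0.11. The promoters of 4 of the named members, a pair that rose and a pair that fell, are shown because both pairs hold the same element. Capitals mark TTTGAA, the core of the CHR element, or its reverse complement TTCAAA. Each window runs 5′ to 3′ along the gene from 250 bases before the start to 50 bases from it on, taken from RefSeq on GRCm38.p6. Cdc20 lies at chr4:118437294-118437593 on the minus strand, Cks1b at chr3:89418242-89418541 on the minus strand, Mki67 at chr7:135716330-135716629 on the minus strand and Depdc1a at chr3:159495183-159495482 on the plus strand.
Cdc20: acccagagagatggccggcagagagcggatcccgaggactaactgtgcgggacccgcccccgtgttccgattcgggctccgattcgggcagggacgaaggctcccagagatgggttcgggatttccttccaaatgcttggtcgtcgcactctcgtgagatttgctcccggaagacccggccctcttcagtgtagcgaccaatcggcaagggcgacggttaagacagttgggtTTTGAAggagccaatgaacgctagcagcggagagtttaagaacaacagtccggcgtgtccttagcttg
Cks1b: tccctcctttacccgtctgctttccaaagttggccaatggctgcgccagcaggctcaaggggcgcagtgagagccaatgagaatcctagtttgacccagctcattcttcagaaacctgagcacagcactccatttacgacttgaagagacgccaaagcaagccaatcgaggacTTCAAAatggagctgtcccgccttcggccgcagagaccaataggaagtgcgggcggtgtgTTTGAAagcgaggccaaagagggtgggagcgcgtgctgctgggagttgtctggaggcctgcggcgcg
Mki67: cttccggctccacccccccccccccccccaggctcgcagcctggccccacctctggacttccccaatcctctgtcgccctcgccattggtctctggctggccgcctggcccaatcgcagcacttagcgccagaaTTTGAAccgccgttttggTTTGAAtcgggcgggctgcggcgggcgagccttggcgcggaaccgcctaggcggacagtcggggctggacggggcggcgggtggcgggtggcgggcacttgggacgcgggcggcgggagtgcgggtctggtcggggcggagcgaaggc
Depdc1a: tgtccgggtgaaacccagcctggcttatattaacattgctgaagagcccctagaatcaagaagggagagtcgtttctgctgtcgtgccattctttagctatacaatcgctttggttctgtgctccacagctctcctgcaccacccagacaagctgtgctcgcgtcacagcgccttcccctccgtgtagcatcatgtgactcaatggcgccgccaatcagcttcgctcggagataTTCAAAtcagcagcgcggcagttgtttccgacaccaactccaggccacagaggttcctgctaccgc
The letters TTTGAA on either strand occurred in 17.9% of the 32851 windows of the table and in 11.3% of the 8640 tested genes matched to a window by symbol (the first window of each). Of the 58 G2/M genes 48 had a window and 32 of these (66.7%) held the letters. They were in 7 of 9 windows of members that rose and in 13 of 18 windows of members that fell. A match of letters is a description and not a bound site.

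Cdc20, the activator of the anaphase-promoting complex, had 158, 258 and 260 FPKM in G3TM and 65.0 and 74.1 FPKM in G1TM (1.65 ± 0.34, adjusted p = 0.00273). Cks1b, a subunit that binds cyclin-dependent kinases, had 147, 193 and 196 FPKM in G3TM and 69.5 and 79.95 FPKM in G1TM (1.24 ± 0.27, adjusted p = 0.00370). Spc24 of the kinetochore rose by 1.37 ± 0.29 (adjusted p = 0.00307). G3TM and G1TM did not overlap for these genes, and the G5TM libraries had 132 to 263 FPKM of Cdc20. Mki67, the proliferation marker Ki-67, had 5.75, 5.37 and 5.85 FPKM in G3TM and 40.9 and 25.1 FPKM in G1TM (-2.31 ± 0.57, adjusted p = 0.00595). The spindle checkpoint kinase Bub1 had 4.01, 3.60 and 2.90 FPKM in G3TM and 15.9 and 12.4 FPKM in G1TM (-1.75 ± 0.41, adjusted p = 0.00501). Depdc1a had 1.22, 0.797 and 0.535 FPKM in G3TM and 4.497 and 5.38 FPKM in G1TM (-1.69 ± 0.43, adjusted p = 0.00722). Mki67 and Bub1 also differed in the same direction in the DM contrast, by -1.85 and -1.19, without being called there. After trend removal 9 members rose and 8 fell, and without replicate 1 of G1TM 4 rose and 1 fell. With quantile normalization 4 rose and 19 fell. The counts were 6 and 11 without replicate 2 of G1TM, and 6 and 10 or 6 and 9 without replicate 2 or 3 of G3TM. Cdc20 was at 0.69 after trend removal, uncalled (adjusted p = 0.0604), and the calls of Mki67 and Bub1 were lost without replicate 1 of G1TM (adjusted p = 0.0722 and 0.0591).

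Of 38 tested G1/S genes, most of them for DNA synthesis, 8 rose (21.1%) and 4 fell (10.5%). Both shares were below the 28.8% and 23.7% of all tested genes. Tk1, thymidine kinase, had 28.1, 49.8 and 50.2 FPKM in G3TM and 13.4 and 15.8 FPKM in G1TM (1.44 ± 0.34, adjusted p = 0.00481). Gins2, of the replicative helicase, had 17.0, 28.4 and 27.0 FPKM in G3TM and 8.20 and 9.04 FPKM in G1TM (1.35 ± 0.29, adjusted p = 0.00327). Hells, a chromatin remodeller, had 2.06, 1.499 and 1.46 FPKM in G3TM and 8.23 and 6.11 FPKM in G1TM (-1.61 ± 0.43, adjusted p = 0.00909). After trend removal 4 members rose and 0 fell, without replicate 1 of G1TM 2 rose and 0 fell, and with quantile normalization 4 rose and 9 fell. Of 15 cyclins, cyclin-dependent kinases and their inhibitors 5 rose and 3 fell, with 1 and 3 without replicate 1 of G1TM and 0 and 2 after trend removal. The shares on log2(FPKM + 1), 33.3% higher and 20% lower, were near those over all tested genes. Cdkn2d, the inhibitor p19, had 23.9, 34.0 and 36.7 FPKM in G3TM and 10.2 and 10.7 FPKM in G1TM (1.48 ± 0.23, adjusted p = 0.000549). Ccnd2, cyclin D2, had 32.5, 18.8 and 20.97 FPKM in G3TM and 67.6 and 74.0 FPKM in G1TM (-1.55 ± 0.25, adjusted p = 0.000814). Cdkn2a, the p16 and p19ARF locus, had 125, 32.8 and 27.6 FPKM in G3TM and 22.3 and 20.7 FPKM in G1TM, all G3TM values above G1TM, but was not called (1.14 ± 0.62, adjusted p = 0.136). Cdkn2a came to -0.26 after trend removal. That step also ended the calls of Cdkn2d (0.43, adjusted p = 0.0568) and Hells (-0.55, adjusted p = 0.141), and the calls of Tk1 and Hells were lost without replicate 1 of G1TM.

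**Figure D3:**
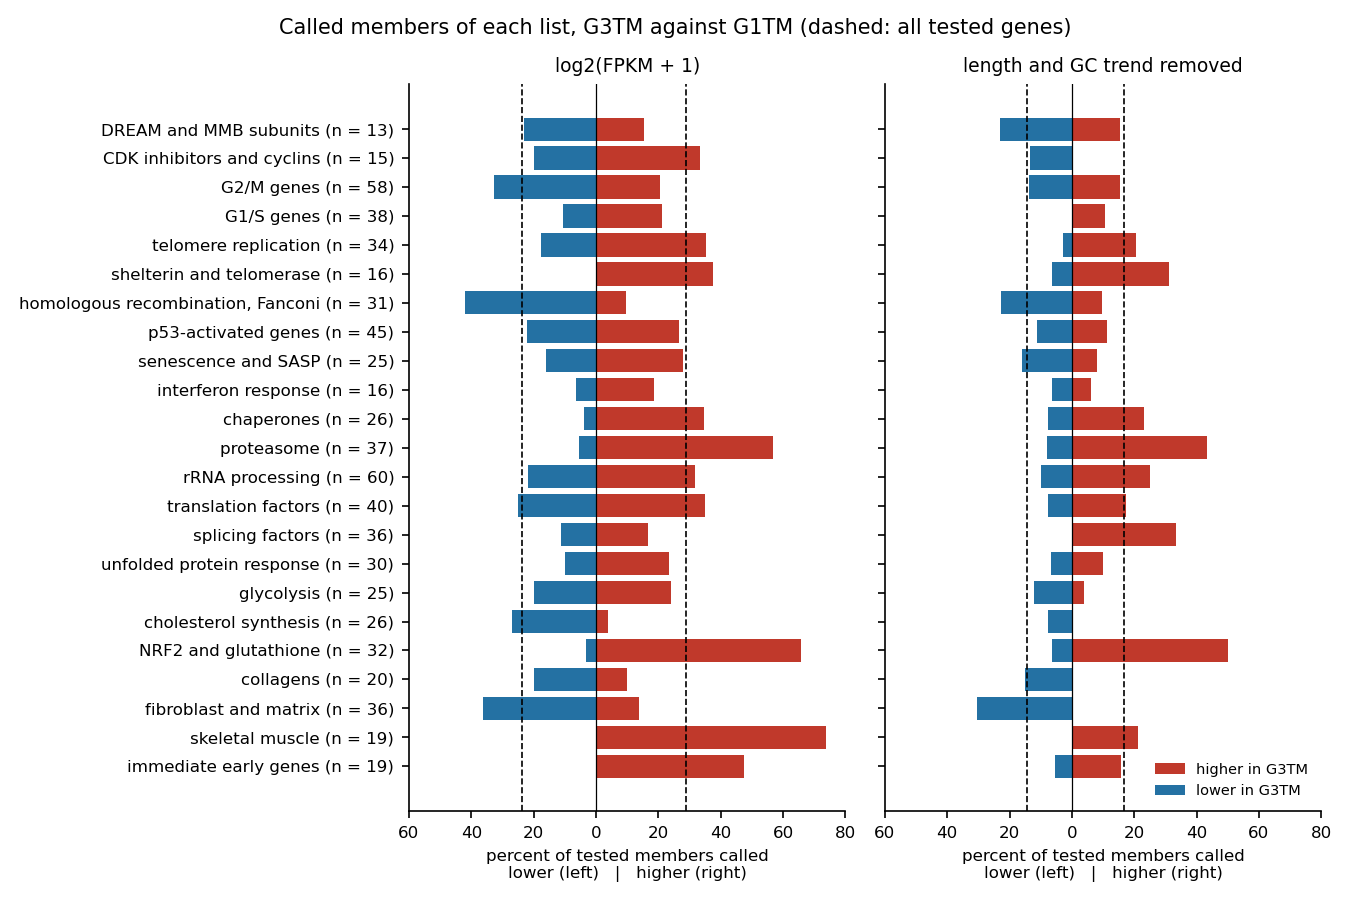
Percent of tested members called higher (red, right) and lower (blue, left) in G3TM against G1TM for 23 lists, on log2(FPKM + 1) and with the length and GC trend removed. Dashed lines give the share over all tested genes, 28.8% and 23.7% on the left panel and 16.8% and 14.5% on the right. Several lists extend past the higher line in both panels, among them proteasome, NRF2, shelterin and telomerase, chaperones, rRNA processing, telomere replication and skeletal muscle.

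Genes that replicate telomeric and other DNA went both ways. Of 34 tested 12 rose (35.3%) and 6 fell (17.6%), against 28.8% and 23.7% of all tested genes. Their median was 0.43, and 7 rose and 1 fell after trend removal. Pold2, an accessory subunit of DNA polymerase delta, had 80.1, 178 and 144 FPKM in G3TM and 25.9 and 28.5 FPKM in G1TM (2.18 ± 0.35, adjusted p = 0.000746). Pole4, a small subunit of polymerase epsilon, had 23.5, 25.2 and 28.5 FPKM in G3TM and 8.27 and 9.05 FPKM in G1TM (1.47 ± 0.24, adjusted p = 0.000780). Ten1, of the CST complex that brings in fill-in synthesis at telomeres, had 5.49, 9.41 and 9.46 FPKM in G3TM and 2.07 and 2.54 FPKM in G1TM (1.43 ± 0.27, adjusted p = 0.00170). All 3 rises were also called after trend removal, with Ten1 at 1.15. Pola1, the catalytic subunit of polymerase alpha, had 1.21, 0.871 and 0.874 FPKM in G3TM and 5.51 and 3.55 FPKM in G1TM (-1.46 ± 0.34, adjusted p = 0.00441). Rfc1, the large subunit of the clamp loader, fell by 1.40 ± 0.27 (adjusted p = 0.00176). Rif1, which controls the timing of replication origins, fell by 1.16 ± 0.41 (adjusted p = 0.0300) but was at 0.03 after trend removal. Pola1 was at -0.48 after that step, uncalled (adjusted p = 0.0986). Without replicate 1 of G1TM 3 members rose and 1 fell.

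Among 16 tested genes of shelterin and the telomerase particle 6 rose (37.5%) and 0 fell. The 3 largest rises were proteins of the H/ACA particle, which holds the telomerase RNA and other guide RNAs. Nop10 had 55.8, 76.1 and 84.9 FPKM in G3TM and 11.7 and 13.53 FPKM in G1TM (2.41 ± 0.32, adjusted p = 0.000263). Nhp2 had 163, 294 and 346 FPKM in G3TM and 47.9 and 72.1 FPKM in G1TM (2.10 ± 0.52, adjusted p = 0.00597). Gar1 had 31.5, 39.4 and 46.4 FPKM in G3TM and 10.2 and 11.2 FPKM in G1TM (1.76 ± 0.28, adjusted p = 0.000669), and its change differed between TM and DM (interaction 1.93, adjusted p = 0.0256). Terf1, the shelterin subunit TRF1, had 1.92, 1.16 and 0.886 FPKM in G3TM and 3.49 and 2.27 FPKM in G1TM and was not called (adjusted p = 0.0576); it was picked after its values were seen. After trend removal 5 members rose and 1 fell, and without replicate 1 of G1TM 2 rose and 0 fell, with Nhp2 uncalled (adjusted p = 0.0715).

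Genes of homologous recombination and the Fanconi pathway, which repair breaks and crosslinks, were lower on balance. Of 31 tested 3 rose (9.68%) and 13 fell (41.9%), with a median of -0.42. Rbbp8, the end resection factor CtIP, had 2.67, 1.53 and 1.69 FPKM in G3TM and 8.90 and 7.35 FPKM in G1TM (-1.64 ± 0.34, adjusted p = 0.00288). Nbn, of the MRN break sensor, had 5.21, 2.20 and 3.20 FPKM in G3TM and 12.0 and 11.0 FPKM in G1TM (-1.52 ± 0.29, adjusted p = 0.00190). Nbn differed by as much in the DM contrast, -1.51, where it was not called. Fance, of the Fanconi core complex, rose by 1.23 ± 0.31 (adjusted p = 0.00691), but was at 0.14 after trend removal (adjusted p = 0.576) and was not called without replicate 1 of G1TM either (adjusted p = 0.0772). The list has a median gene length of 5752 bases, and after trend removal 3 members rose and 7 fell. Leaving out replicate 1 of G1TM gave 0 higher and 3 lower.

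The p53-activated genes showed low levels in all TM libraries and no common direction between generations. Their summed FPKM was 482 to 712 in G3TM and 326 and 342 in G1TM, against 1070 to 1567 in the 7 DM libraries, which have wild-type p53. As a share of recovered reads they had 0.140 to 0.151% in G3TM and 0.136 and 0.141% in G1TM, so the generations overlapped. Of 45 tested 12 rose (26.7%) and 10 fell (22.2%), close to the shares over all genes, and 5 rose and 5 fell after trend removal. In the fit without replicate 1 of G1TM 7 rose and 2 fell, and without its replicate 2 the counts were 6 and 4. They were 7 and 5 without replicate 2 and 9 and 4 without replicate 3 of G3TM. Cdkn1a had 6.13, 29.6 and 16.2 FPKM in G3TM and 4.22 and 5.90 FPKM in G1TM (1.37 ± 0.49, adjusted p = 0.0320), whereas the DM libraries had 86.2 to 216 FPKM. The first G3TM library was just above G1TM, and the call was lost in 9 of 26 alternative settings. Mdm2, the ubiquitin ligase of p53, had 7.79, 2.33 and 2.88 FPKM in G3TM and 9.90 and 9.04 FPKM in G1TM (-1.11 ± 0.41, adjusted p = 0.0358), a call also lost in 9 of 26 alternative settings, among them trend removal (-0.76, adjusted p = 0.117). The largest rise was in Bax, a mitochondrial effector of apoptosis, with 102, 181 and 166 FPKM in G3TM and 18.9 and 22.2 FPKM in G1TM (2.77 ± 0.33, adjusted p = 0.000117). Phlda3, an inhibitor of AKT, had 73.9, 162 and 146 FPKM in G3TM and 19.9 and 24.1 FPKM in G1TM (2.41 ± 0.41, adjusted p = 0.00101). Bbc3, the apoptosis inducer PUMA, rose by 2.01 ± 0.37 (adjusted p = 0.00155), but was at 0.58 after trend removal, uncalled (adjusted p = 0.184). Ccng1, cyclin G1, had 9.87, 4.89 and 3.94 FPKM in G3TM and 23.0 and 19.3 FPKM in G1TM (-1.70 ± 0.33, adjusted p = 0.00203), and 80.9 to 326 FPKM in the DM libraries.

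Secreted factors linked to senescence were mixed, 7 of 25 higher (28%) and 4 lower (16%), against 28.8% and 23.7% of all tested genes. Plaur, the urokinase receptor, had 83.0, 81.8 and 121 FPKM in G3TM and 19.3 and 27.8 FPKM in G1TM (1.97 ± 0.56, adjusted p = 0.0118). Ccl7, a chemokine, had 15.2, 8.06 and 15.4 FPKM in G3TM and 57.4 and 48.8 FPKM in G1TM (-2.01 ± 0.48, adjusted p = 0.00521). Igfbp5 fell by 1.65 ± 0.55 (adjusted p = 0.0230), while Igfbp2 rose by 1.94 ± 0.68 (adjusted p = 0.0300). Of 16 tested interferon-stimulated genes 3 rose and 1 fell, Bst2 by 1.802 ± 0.42 (adjusted p = 0.00454). After trend removal 2 of the senescence list rose and 4 fell, and 1 interferon gene rose and 1 fell. Leaving out replicate 1 of G1TM, 2 senescence genes rose and 2 fell, and 0 interferon genes were called by limma. Plaur, Igfbp2 and Bst2 were not called after trend removal, at 1.37, 0.57 and 0.73 (adjusted p = 0.0573, 0.485 and 0.231). The calls of these 3 genes, Ccl7 and Igfbp5 were lost without replicate 1 of G1TM.

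**Figure D4:**
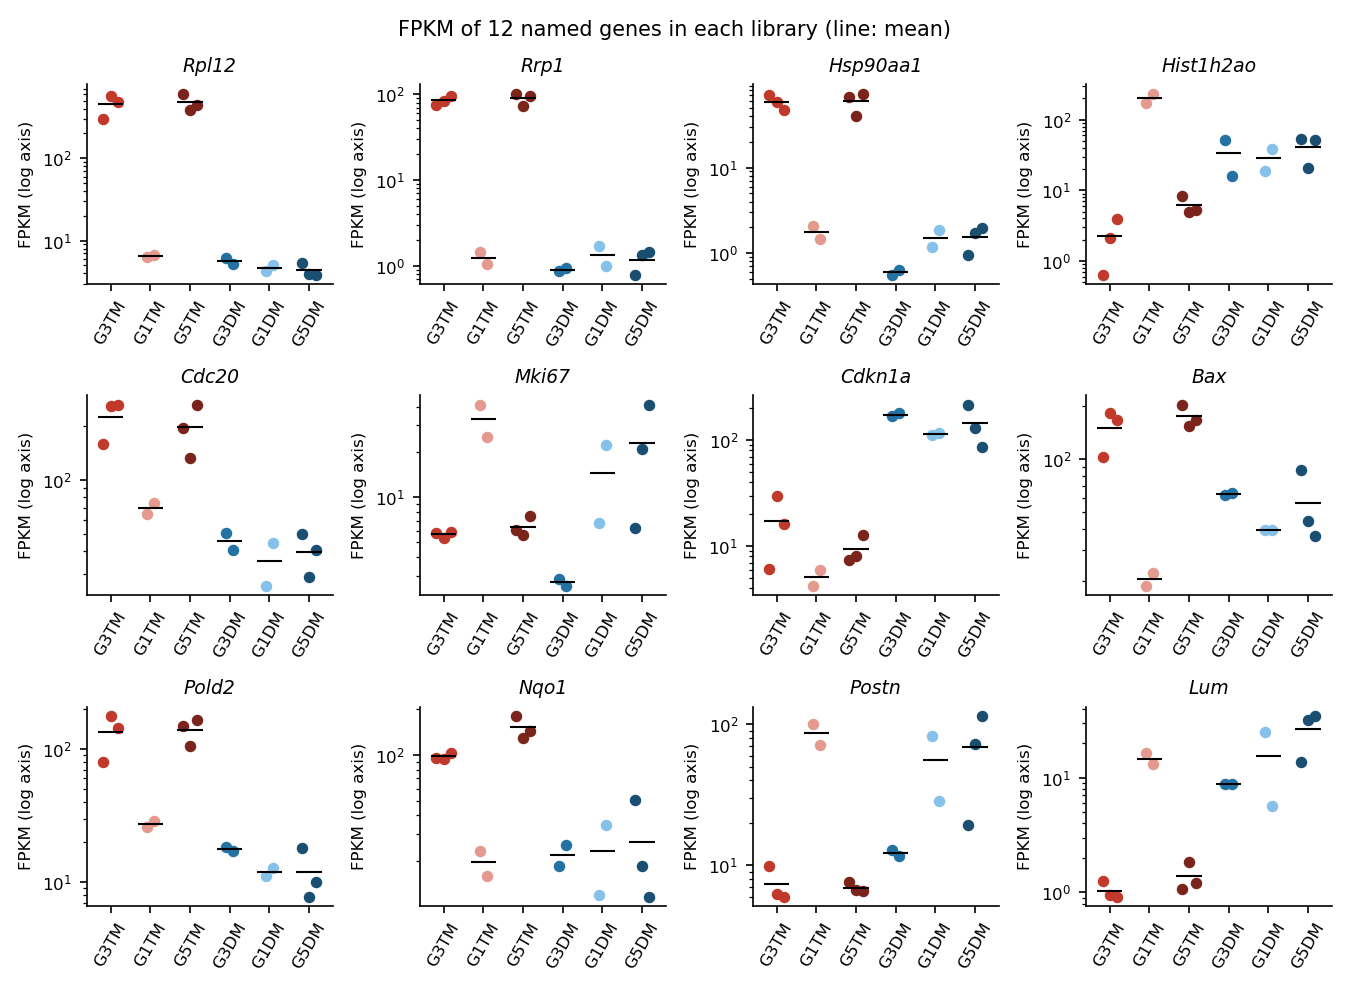
FPKM of 12 named genes in each library on log axes, by group, with a line at the group mean. Rpl12, Rrp1 and Hsp90aa1 have G3TM and G5TM far above all other libraries, whereas Postn and Lum in G3TM and G5TM lie below every other library. Cdkn1a is highest in the DM groups, at 86.2 to 216 FPKM.

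Among coding genes outside the classes, large rises included those of several ribosome assembly and folding factors. Rrp1, a nucleolar protein of large-subunit maturation, had 74.7, 83.8 and 95.3 FPKM in G3TM and 1.44 and 1.04 FPKM in G1TM (5.25 ± 0.21, adjusted p = 3.79e-09). Rrp7a had 23.5, 47.0 and 45.2 FPKM in G3TM and 0.723 and 0.709 FPKM in G1TM (4.46 ± 0.28, adjusted p = 5.48e-07). Rrp12, a small-subunit export factor, had 18.8, 27.8 and 35.9 FPKM in G3TM and 0.410 and 0.428 FPKM in G1TM (4.28 ± 0.37, adjusted p = 1.17e-05). Rrp9, a U3 snoRNP protein, had 38.5, 72.4 and 84.1 FPKM in G3TM and 2.43 and 2.65 FPKM in G1TM (4.15 ± 0.44, adjusted p = 5.51e-05). Rrp1 had 73.5 to 102 FPKM in the G5TM libraries and 0.780 to 1.67 FPKM in the 7 DM libraries. Over the whole rRNA processing list of 60 genes, 19 rose (31.7%) and 13 fell (21.7%), near the shares over all genes, with 9 and 3 without replicate 1 of G1TM, 15 and 6 after trend removal and 16 and 20 with quantile normalization. Npm1, nucleophosmin, had 116, 92.2 and 88.1 FPKM in G3TM and 260 and 256 FPKM in G1TM (-1.39 ± 0.33, adjusted p = 0.00514).

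Hsp90aa1, the inducible cytosolic HSP90, had 70.7, 57.7 and 47.2 FPKM in G3TM and 2.09 and 1.48 FPKM in G1TM (4.41 ± 0.27, adjusted p = 5.20e-07). Hspb1, the small heat shock protein HSP25, had 306, 669 and 769 FPKM in G3TM and 70.3 and 85.2 FPKM in G1TM (2.79 ± 0.43, adjusted p = 0.000564). Hsp90b1, the HSP90 of the endoplasmic reticulum, fell by 1.47 ± 0.36 (adjusted p = 0.00556), and over 26 tested chaperones 9 rose and 1 fell, with 7 and 8 under quantile normalization and 2 and 0 without replicate 1 of G1TM, where Hsp90b1 was not called. The proteasome list had 21 of 37 members higher (56.8%) and 2 lower (median 0.78). Psmb6, a catalytic subunit, had 111, 273 and 238 FPKM in G3TM and 30.5 and 39.1 FPKM in G1TM (2.45 ± 0.39, adjusted p = 0.000695). Psmb5 rose by 2.13 ± 0.42 (adjusted p = 0.00201), and the base ATPase Psmc6 had 9.44, 5.71 and 6.00 FPKM in G3TM and 27.1 and 25.9 FPKM in G1TM (-1.801 ± 0.32, adjusted p = 0.00118). The proteasome count was 16 higher and 3 lower after trend removal, 6 higher and 2 lower without replicate 1 of G1TM, and 11 higher and 8 lower with quantile normalization. Translation factors split, 14 of 40 higher and 10 lower, with 6 and 18 under quantile normalization, 7 and 3 after trend removal and 1 and 4 without replicate 1 of G1TM. The shares on log2(FPKM + 1), 35% higher and 25% lower, were near those over all tested genes. Eif6 rose by 2.16 ± 0.44 (adjusted p = 0.00265) and Eif1a fell by 1.75 ± 0.34 (adjusted p = 0.00180). Of 36 splicing factors 6 were higher (16.7%) and 4 lower (11.1%) on log2(FPKM + 1), both below the shares over all tested genes. After trend removal 12 were called, all higher. With quantile normalization 4 were higher and 14 lower, so the direction of this list depends on the scaling. Leaving out replicate 1 of G1TM gave 3 higher and 0 lower. Hnrnpa0 had 364, 351 and 373 FPKM in G3TM and 91.7 and 96.4 FPKM in G1TM (1.93 ± 0.19, adjusted p = 2.97e-05).

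Genes of the NRF2 and glutathione response, which detoxify oxidants, were higher. Of 32 tested 21 rose (65.6%) and 1 fell, with a median of 1.00, against 0.52 in the DM contrast, and 16 rose and 2 fell after trend removal. Gsta4, a glutathione transferase, had 32.2, 42.8 and 51.0 FPKM in G3TM and 5.62 and 4.38 FPKM in G1TM (2.82 ± 0.38, adjusted p = 0.000254). Nqo1, a quinone reductase, had 95.3, 93.9 and 104 FPKM in G3TM and 23.4 and 15.9 FPKM in G1TM (2.28 ± 0.49, adjusted p = 0.00332). Taldo1, of the pentose phosphate pathway, rose by 2.38 ± 0.40 (adjusted p = 0.000945). The 1 gene that fell was Nfe2l2, which encodes NRF2 itself, with 14.9, 12.6 and 14.2 FPKM in G3TM and 24.5 and 25.9 FPKM in G1TM (-0.82 ± 0.19, adjusted p = 0.00489). Without replicate 1 of G1TM 10 members of this list rose, and with quantile normalization 12 did.

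Of 26 cholesterol synthesis genes 7 fell (26.9%) and 1 rose (3.85%), against 23.7% and 28.8% of all tested genes. The share that fell was thus near that over all genes. Idi1, isopentenyl diphosphate isomerase, had 5.00, 2.77 and 1.82 FPKM in G3TM and 30.9 and 20.3 FPKM in G1TM (-2.70 ± 0.58, adjusted p = 0.00322), and the DM libraries ranged from 2.35 to 26.9 FPKM. Hmgcs1 fell by 1.92 ± 0.57 (adjusted p = 0.0142), a call that was lost after trend removal, where 2 members fell and 0 rose. Quantile normalization gave 12 members lower, while 1 was lower without replicate 1 of G1TM, 3 without its replicate 2 and 2 without replicate 3 of G3TM. Of 25 glycolysis genes 6 rose (24%) and 5 fell (20%), near the shares over all genes. Pfkl was at 1.11 ± 0.30 (adjusted p = 0.00915) and Pdk1 at -1.31 ± 0.33 (adjusted p = 0.00633). After trend removal 1 glycolysis gene rose and 3 fell, without replicate 1 of G1TM 0 rose and 2 fell, and with quantile normalization 1 rose and 8 fell. Pfkl was at 0.43 with quantile normalization (adjusted p = 0.183) and Pdk1 at -0.76 after trend removal (adjusted p = 0.0664), both uncalled. Without replicate 2 of G1TM the counts were 1 and 2, without replicate 2 of G3TM 1 and 4, and without replicate 3 of G3TM 3 and 4. Unfolded protein response genes had 7 of 30 higher (23.3%) and 3 lower (10%), both below the shares over all genes. Sdf2l1 rose by 1.41 ± 0.30 (adjusted p = 0.00316). Canx, calnexin, had 88.4, 68.4 and 66.0 FPKM in G3TM against 177 and 160 FPKM in G1TM (-1.18 ± 0.22, adjusted p = 0.00146). The balance of this list turned with quantile normalization, to 4 higher and 7 lower, and it had 3 and 2 after trend removal and 1 and 2 without replicate 1 of G1TM. Sdf2l1 was at 0.24 after trend removal, uncalled (adjusted p = 0.371). Immediate early genes, which respond to growth signals within minutes, had 9 of 19 higher and 0 lower. Junb had 111, 116 and 129 FPKM in G3TM and 16.6 and 30.1 FPKM in G1TM (2.35 ± 0.32, adjusted p = 0.000262). After trend removal 3 of them rose and 1 fell, and without replicate 1 of G1TM 2 rose and 0 fell. With quantile normalization 4 rose and 1 fell.

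Matrix and fibroblast genes were more often lower than higher. Of 36 tested 5 rose (13.9%) and 13 fell (36.1%), with a median of -0.34, against 0.33 in the DM contrast, and after trend removal 0 rose and 11 fell. In the fit without replicate 1 of G1TM 1 rose and 5 fell, and with quantile normalization 2 rose and 20 fell. The counts were 1 and 7 without replicate 2 of G1TM and 1 and 8 without replicate 2 or 3 of G3TM. Postn, the matricellular protein periostin, had 9.86, 6.31 and 5.98 FPKM in G3TM and 101 and 71.5 FPKM in G1TM (-3.39 ± 0.57, adjusted p = 0.000994). Aspn, asporin, had 2.57, 1.15 and 1.09 FPKM in G3TM and 22.1 and 15.9 FPKM in G1TM (-2.97 ± 0.68, adjusted p = 0.00421). Lum, lumican, had 1.26, 0.943 and 0.914 FPKM in G3TM and 16.3 and 13.0 FPKM in G1TM (-2.94 ± 0.46, adjusted p = 0.000664). The leucine-rich proteoglycan Ogn fell by 2.50 ± 0.79 (adjusted p = 0.0184) and Dcn, decorin, by 2.22 ± 0.41 (adjusted p = 0.00145). Loxl1, a crosslinking enzyme of elastin, had 281, 395 and 395 FPKM in G3TM and 108 and 148 FPKM in G1TM (1.47 ± 0.29, adjusted p = 0.00219). Among 20 collagens 2 rose (10%) and 4 fell (20%), both below the shares over all tested genes. Col8a1 was at -1.65 ± 0.31 (adjusted p = 0.00152) and Col12a1 at -1.52 ± 0.33 (adjusted p = 0.00337). The collagen counts were 0 and 2 without replicate 1 or 2 of G1TM, 0 and 3 after trend removal and 0 and 3 without replicate 2 or 3 of G3TM. After trend removal Loxl1 was at 0.42 and Ogn at -1.90, both uncalled (adjusted p = 0.0763 and 0.0611), and without replicate 1 of G1TM Aspn and Ogn were not called. The matrix and fibroblast list as a whole summed to 8038, 8769 and 9031 FPKM in G3TM and to 8134 and 9397 FPKM in G1TM, so these sums overlapped. Its share of recovered reads did not overlap, at 3.96, 3.13 and 3.32% in G3TM and 4.89 and 5.08% in G1TM.

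Other large falls included Agtr2, the angiotensin type 2 receptor, with 0.640, 0.204 and 0.277 FPKM in G3TM and 15.6 and 8.91 FPKM in G1TM (-3.24 ± 0.81, adjusted p = 0.00647). Ahnak, a very large scaffold protein, had 46.2, 24.5 and 25.6 FPKM in G3TM and 215 and 183 FPKM in G1TM (-2.65 ± 0.26, adjusted p = 3.40e-05). Cops2, of the COP9 signalosome, had 5.04, 3.23 and 3.17 FPKM in G3TM and 28.8 and 25.9 FPKM in G1TM (-2.58 ± 0.40, adjusted p = 0.000664). Map1b, a microtubule-associated protein, fell by 2.34 ± 0.36 (adjusted p = 0.000564), Igsf10 by 2.64 ± 0.48 (adjusted p = 0.00142) and the inositol transporter Slc5a3 by 2.48 ± 0.59 (adjusted p = 0.00502). Agtr2 and Slc5a3 were not called without replicate 1 of G1TM (adjusted p = 0.0697 and 0.0644). Other large rises were Romo1, a small mitochondrial membrane protein, with 77.2, 117 and 110 FPKM in G3TM and 6.78 and 8.78 FPKM in G1TM (3.53 ± 0.31, adjusted p = 1.23e-05). Fbxo2, an F-box protein that binds glycans, rose by 3.50 ± 0.35 (adjusted p = 3.82e-05), the spliceosome core protein Snrpd2 by 3.34 ± 0.43 (adjusted p = 0.000211) and Gm1673 by 3.26 ± 0.34 (adjusted p = 4.48e-05). Of 207 tested genes with numbered Zfp names, most of them zinc finger factors, 38 rose (18.4%) and 95 fell (45.9%), with 16 and 42 after trend removal and 13 and 17 without replicate 1 of G1TM. Of 33 tested Hox genes 0 were called by limma, with differences from -0.90 to 0.92, while 1 was higher and 4 were lower after trend removal.

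Markers of other cell types differed between libraries, and skeletal muscle genes were among those that rose. In bulk RNA fewer cells of a type and less RNA per cell cannot be told apart. Of 30 skeletal muscle genes 19 were tested, and 14 rose (73.7%) and 0 fell, with a median of 1.84, against -0.15 in the DM contrast. Members such as Mylpf, below 1 FPKM in both G1TM libraries, were tested only because G3TM reached that level. The filter thus set part of these counts and of the median. The summed level was 35.2, 581 and 227 FPKM in G3TM and 33.8 and 62.6 FPKM in G1TM, so the first G3TM library was at the G1TM level. Actc1, cardiac alpha-actin of embryonic muscle, had 2.30, 147 and 45.8 FPKM in G3TM and 1.02 and 0.811 FPKM in G1TM (3.89 ± 1.13, adjusted p = 0.0127). Mylpf, a fast myosin light chain, had 2.29, 77.0 and 35.3 FPKM in G3TM and 0.504 and 0.697 FPKM in G1TM (3.72 ± 0.97, adjusted p = 0.00776). Tnnc1, slow troponin C, had 2.08, 60.4 and 25.4 FPKM in G3TM and 0.791 and 1.00 FPKM in G1TM (3.17 ± 0.94, adjusted p = 0.0143). The count of muscle genes called fell to 4 without replicate 2 of G3TM, 6 without replicate 3, 1 without replicate 2 of G1TM, 0 without replicate 1 of G1TM, 4 after trend removal and 4 with voom on recovered reads, and it was 18 without replicate 1 of G3TM.

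Macrophage and leukocyte markers summed to 9.60, 94.3 and 498 FPKM in G3TM and to 10.7 and 29.1 FPKM in G1TM, and 1 of 14 tested members was called, Cd14 (1.37 ± 0.52, adjusted p = 0.0425). The Cd14 call was lost in 16 of 26 alternative settings, with adjusted p up to 0.412. The number of members called was 0 without replicate 1 of G1TM, without replicate 2 or 3 of G3TM, after trend removal and with voom, and 13 without replicate 1 of G3TM. C1qa, a complement component of macrophages picked after its values were seen, had 0.402, 13.1 and 64.5 FPKM in G3TM and 0.356 and 1.42 FPKM in G1TM. Cartilage markers summed to 130, 212 and 89.0 FPKM in G3TM and 58.5 and 46.6 FPKM in G1TM, and 4 of 7 rose and 1 fell. Col2a1, the main cartilage collagen, had 88.6, 157 and 56.6 FPKM in G3TM and 18.3 and 15.2 FPKM in G1TM (2.40 ± 0.46, adjusted p = 0.00189). Epithelial markers summed to 60.2, 125 and 124 FPKM in G3TM and 24.2 and 47.0 FPKM in G1TM, and 5 of 6 rose. The keratin Krt8 had 8.21, 20.1 and 29.5 FPKM in G3TM and 1.45 and 2.90 FPKM in G1TM (2.55 ± 0.50, adjusted p = 0.00213). Neural markers summed to 150, 312 and 207 FPKM in G3TM and 91.5 and 116 FPKM in G1TM, with 2 of 7 higher and 1 lower. Their share of recovered reads overlapped, at 0.0607, 0.0717 and 0.0566% in G3TM and 0.0559 and 0.0634% in G1TM. Adipocyte markers went the other way in sum, at 95.3, 94.0 and 47.0 FPKM in G3TM and 154 and 142 FPKM in G1TM. Of 4 tested adipocyte markers 2 rose and 1 fell. Endothelial markers had a lower share of recovered reads, at 0.00803, 0.0106 and 0.0116% in G3TM and 0.0140 and 0.0147% in G1TM. Of 3 tested endothelial markers 1 rose and 1 fell. Erythroid markers were at most 1.21 FPKM in sum and none reached the testing level. Smooth muscle markers summed to 3440, 4423 and 5975 FPKM in G3TM and 2272 and 3407 FPKM in G1TM (3 of 16 higher, 2 lower, 0 after trend removal). Their share of recovered reads overlapped as well, at 0.901, 0.870 and 1.19% in G3TM and 0.739 and 0.939% in G1TM. In the fit without replicate 1 of G1TM 1 epithelial and 3 cartilage markers rose, and after trend removal 2 of each did. Of the marker lists, 8 to 11 of 13 erythroid members and 2 to 5 of 23 macrophage members were at 0 in each library. The part of these markers in the other differences was not tested.

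**Figure D5:**
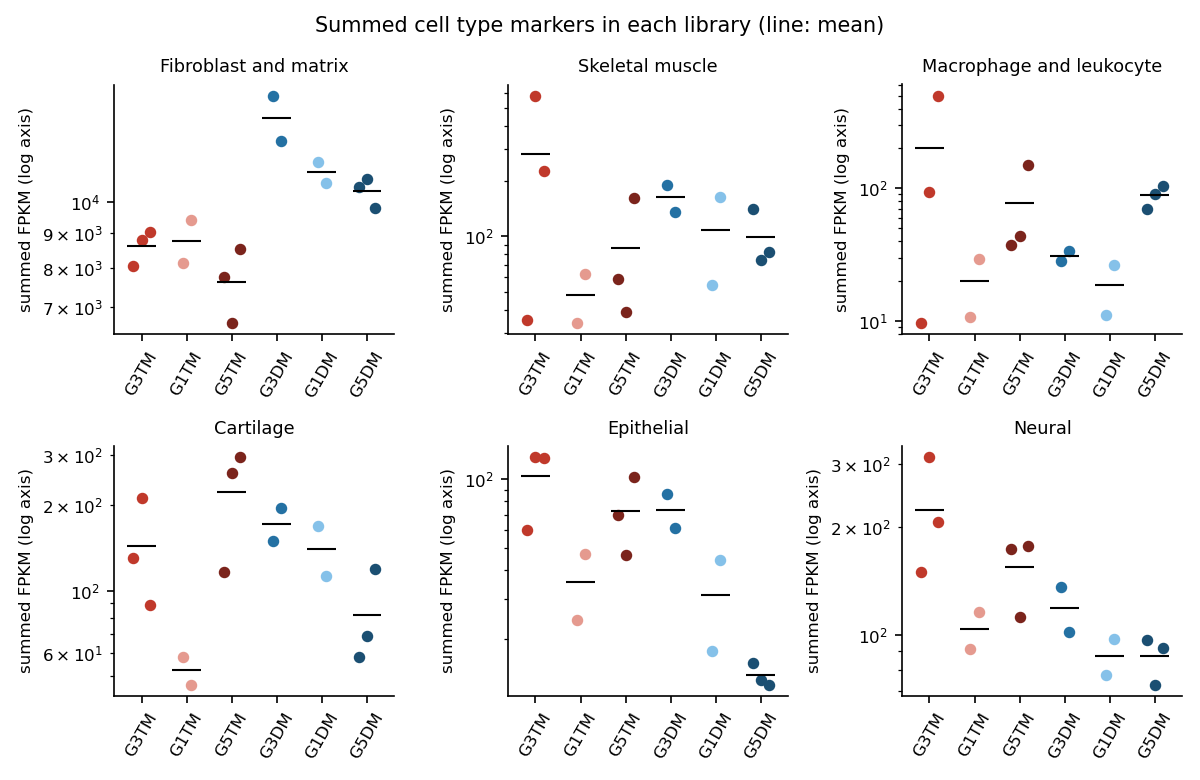
Summed FPKM of marker lists for 6 cell types in each library on log axes, by group, with a line at the group mean. Muscle and macrophage sums in G3TM span 35.2 to 581 FPKM and 9.60 to 498 FPKM, and the first G3TM library is the lowest of its group in both.

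Imprinted genes had 4 of 23 higher and 9 lower, with 4 and 3 after trend removal and 2 and 4 without replicate 1 of G1TM. Nnat, neuronatin, had 32.5, 76.2 and 59.5 FPKM in G3TM and 11.3 and 10.7 FPKM in G1TM (2.16 ± 0.30, adjusted p = 0.000292), and the long RNA H19 had 1965, 3138 and 2599 FPKM in G3TM and 799 and 1084 FPKM in G1TM (1.44 ± 0.43, adjusted p = 0.0154). H19 was at 0.59 after trend removal and 0.80 with quantile normalization, both uncalled (adjusted p = 0.267 and 0.0941). Rian, an RNA of the Dlk1-Dio3 region, had 9.30, 7.26 and 6.04 FPKM in G3TM and 32.5 and 24.0 FPKM in G1TM (-1.78 ± 0.38, adjusted p = 0.00300), a fall that was -0.20 after trend removal. Malat1, a nuclear RNA, had 22.2, 10.4 and 9.62 FPKM in G3TM and 92.8 and 46.2 FPKM in G1TM (-2.24 ± 0.81, adjusted p = 0.0336), and differed by -2.18 in the DM contrast, uncalled. The Malat1 call was lost after trend removal (-1.42, adjusted p = 0.133) and without replicate 1 of G1TM. The snoRNA host gene Snhg8 had 22.7, 23.6 and 20.3 FPKM in G3TM and 3.96 and 4.69 FPKM in G1TM (2.12 ± 0.21, adjusted p = 2.98e-05). The largest difference of any RNA named here was in Gm26917, an annotated non-coding gene, with 224, 452 and 436 FPKM in G3TM and 0.247 and 0.121 FPKM in G1TM (8.23 ± 0.29, adjusted p = 3.10e-09). The 7 DM libraries had 0.0999 to 0.517 FPKM of it and the G5TM libraries 265 to 460 FPKM. The short non-coding genes Mir703 and Snord104 also rose, Mir703 by 2.97 ± 0.31 (adjusted p = 4.98e-05) and Snord104 by 2.72 ± 0.40 (adjusted p = 0.000459).

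Few genes set G3TM apart from every other group. Among called genes 21 had all 3 G3TM libraries above the other 12, and 25 had them below. The genes named in the rest of this paragraph were picked after their values were seen. Ahcy, which clears S-adenosylhomocysteine, had 97.0, 194 and 125 FPKM in G3TM and 39.7 and 51.9 FPKM in G1TM, and 85.4 FPKM at most in any other library. Gsr, glutathione reductase, had 43.6, 36.9 and 36.2 FPKM in G3TM and 18.4 and 22.9 FPKM in G1TM. Its highest value in any other library was 35.4 FPKM, just below G3TM. Spp1, the secreted phosphoprotein osteopontin, had 73.0, 70.6 and 52.9 FPKM in G3TM and 261 and 261 FPKM in G1TM (-1.99 ± 0.54), against 86.4 to 914 FPKM over the other 12 libraries. Ssb, the La protein that binds new RNA polymerase III transcripts, had 10.6, 9.21 and 10.6 FPKM in G3TM and 49.6 and 40.2 FPKM in G1TM. Its lowest value in any other library was 10.7 FPKM, just above G3TM. The first G3TM library lay nearest to G1TM for 2965 of the genes that rose (85.6%) and for 2542 of those that fell (89.0%).

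The interaction asked whether the change from generation 1 to generation 3 differed between p53 N236S and wild-type p53. Among the groups in this test only G3TM lies on the G3TM and G5TM side of the library division. The interaction and that division therefore cannot be told apart. Of the 3464 genes that rose in TM 218 and of the 2855 that fell 107 were called in the same direction. Among coding genes outside the classes, the largest positive values belonged to Rrp1 (5.53, adjusted p = 3.14e-07), Hsp90aa1 (5.05, adjusted p = 1.45e-05) and Rrp7a (4.36, adjusted p = 9.42e-05). Snrpg, a spliceosome core protein, had 58.5, 67.4 and 61.8 FPKM in G3TM and 13.7 and 13.4 FPKM in G1TM, and differed by -1.32 in DM, uncalled (interaction 3.44, adjusted p = 0.00580). In the negative direction Cck, the gene of cholecystokinin, had 15.9, 13.0 and 18.2 FPKM in G3TM and 17.6 and 10.6 FPKM in G1TM, against 96.8 and 276 FPKM in G3DM and 5.42 and 15.3 FPKM in G1DM (interaction -3.83, adjusted p = 0.00532). Gas7 had 2.58, 2.70 and 2.98 FPKM in G3TM and 9.30 and 9.88 FPKM in G1TM, with a difference of 1.05 in DM (interaction -2.55, adjusted p = 0.00253). Thbs2, a thrombospondin of the matrix, had 45.9, 51.0 and 49.3 FPKM in G3TM and 169 and 153 FPKM in G1TM (interaction -2.46, adjusted p = 0.0193), and Dkk2, a Wnt antagonist, had 11.8, 4.36 and 5.79 FPKM in G3TM and 40.5 and 40.8 FPKM in G1TM (interaction -3.10, adjusted p = 0.0263). Among the largest list counts of the interaction were 12 of 83 cytosolic ribosomal protein genes, 9 of 85 of their pseudogenes and 11 of 82 respiratory chain genes. These and 8 of 60 rRNA processing genes had a more positive change, and 9 of 13 mitochondrial mRNAs a more negative one. Over all tested genes the shares were 1.82% and 0.988%, and many lists had 0 in both directions. The interaction calls moved widely when 1 library was left out, as given above. Of the genes higher in TM 5 were also called higher in DM, and of those lower 0 were called lower in DM. The 5 shared genes, named after their values were seen, were Gjb5, Lgr6, S100a1, Upk1b and Tor4a. S100a1, a calcium-binding protein, had 14.2, 17.7 and 16.9 FPKM in G3TM and 5.16 and 4.99 FPKM in G1TM, and 39.97 and 42.2 FPKM in G3DM and 12.1 and 16.4 FPKM in G1DM.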

How the data were processed

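PolyA RNA of mouse embryonic fibroblasts was sequenced from NEBNext Ultra libraries, per the labels' protocols. The authors deposited FPKM, fragments per kilobase scaled by a size for each library, for 54495 genes in 15 libraries. DESeq2 1.20.0, featureCounts 1.5.0-p3, HISAT2 2.0.5, CASAVA 1.8 and fastp are listed, with no roles, in the submitters' processing notes. The genome build is not given in the sources used here. For 98.3% of genes the coordinates in the table were those of GENCODE vM21 on GRCm38. Counting is not stated to use strand, so overlapping and antisense genes are uncertain. FPKM times gene length gave whole multiples of 1 step per library within 0.05 for 100% of values, which gave back read totals.

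Groups came from the labels. log2(FPKM + 1) of all 15 libraries entered 1 linear model with a mean for each of the 6 groups (limma 3.58.1 in R 4.3.3, trended empirical Bayes, 9 residual degrees of freedom). Two-sided p-values were adjusted by Benjamini-Hochberg over all tested genes, and genes under 0.05 were called. Genes had to reach 1 FPKM in 2 or more of the 5 G3TM and G1TM libraries. Length and GC trends were removed per library by loess with a span of 0.4. The fit was also run on simulated data with independent noise. That simulation held no length or GC trend and no library division, so it does not bear on them. Alternatives were pseudocounts of 0.1 and 0.5, filters, scalings, a replicate block, voom on recovered reads and each library left out. Python 3.11.15 with numpy 2.4.6, pandas 2.3.3 and matplotlib 3.10.9 handled tables and plots.

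The 37 lists, the classes and the members were chosen with earlier results of these data known. Named genes were 8 fixed genes, the 3 largest called rises and falls of each class and list, the 12 largest rises and falls among other called coding genes with a group mean of at least 5 FPKM and no overlap, 6 interaction genes and 4 non-coding genes per direction. Genes named by other means are said to be chosen after their values were seen. The interaction result of 1 gene that met this rule is not reported here.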

Additional observations from a re-analysis of the deposited data

Results flagged for a closer look

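The genes here had a change from generation 1 to generation 3 that differed between p53 N236S and wild-type p53 by the limma interaction test, with adjusted p from 3.14e-07 to 0.0435. Values are the TM change (G3TM minus G1TM) minus the DM change (G3DM minus G1DM) on the log2(FPKM + 1) scale. A positive value means a more positive change in TM. Only G3TM, among the groups in this test, lies with G5TM in the library division described above. These values therefore cannot be told apart from that division.

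Among ribosomal protein genes the interaction was 5.596 for Rpl12, 3.796 for Rps29 and 3.298 for Rpl39, and among their pseudogenes 3.474 for Rpl39-ps, 3.476 for Rps19-ps6 and 3.341 for Rpl7a-ps5. On the mitochondrial genome it was positive for both rRNAs, 5.253 for mt-Rnr1 and 3.447 for mt-Rnr2, and negative for 3 mRNAs, -3.761 for mt-Nd4l, -2.853 for mt-Atp6 and -2.699 for mt-Co2. Nuclear genes for mitochondria gave 1.739 for Mrps28, 3.355 for Atp5k, 2.986 for Ndufa3 and 2.34 for Uqcr11, and histone H2A genes gave -6.19 for Hist1h2ao and -3.911 for Hist1h2ap.

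Ribosome assembly factors and folding factors gave 5.534 for Rrp1, 4.363 for Rrp7a, 4.268 for Rrp12, 4.237 for Rrp9 and 5.053 for Hsp90aa1. Other coding genes with a more positive change in TM gave 2.955 for Romo1, 2.434 for Fbxo2, 2.831 for Snrpd2, 3.439 for Snrpg and 2.737 for Gm1673, and 1.928 for Gar1, 2.108 for Bax, 1.901 for Hnrnpa0 and 1.354 for Srsf9. The values were also positive, 2.46 for Gsta4, 2 for Nnat and 2.052 for Junb. Coding genes with a more negative change in TM gave -2.029 for Ahnak, -3.1 for Dkk2, -3.835 for Cck, -3.208 for Gpr149, -2.548 for Gas7 and -2.461 for Thbs2. For Cck the DM change of 4.01 made the difference, with a TM change of 0.17. Non-coding genes gave 7.965 for Gm26917, 3.127 for Gm12473, 2.458 for Epb41l4aos, 2.043 for Snhg8, 2.202 for Mir703 and 2.733 for Snord104.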

How the results depend on the processing

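The G3TM against G1TM count kept to within 1.5 times of 6319 under the other filters, pseudocounts, scalings, the fit on 5 libraries and voom on recovered reads. Removing the length and GC trend gave 3761, 2021 higher and 1740 lower, and an FPKM minimum of 5 gave 1669 lower. Leaving out 1 library gave 2059 to 7269 genes, 1321 to 3985 higher and 738 to 3284 lower, lowest without replicate 1 of G1TM. The interaction count of 338 became 184 with no filter, 106 higher and 78 lower. Its 119 lower genes became 218 after trend removal and 183 with quantile normalization. Leaving out 1 library gave 81 to 1213 interaction genes, 55 to 762 higher and 25 to 451 lower. The 38 genes of G3DM against G1DM became 14 at an FPKM minimum of 5, 134 with no filter, 3 and 11 at pseudocounts of 0.1 and 0.5, 235 with quantile normalization, 23 with voom and 2 to 1504 when 1 library was left out. The cause was not tested.

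Replicate numbers 1 and 2 were shared by G3TM and G1TM. Deviations of these libraries from the mean of replicates 1 and 2 in their group correlated at 0.37. That value is the same for both pairs by construction, and the paired samples share only a number. A replicate block gave 5445 genes for G3TM against G1TM, of which 2897 higher and 2457 lower ones were shared with the fit without it, 175 for the interaction (113 higher, 62 lower) and 8 for G3DM against G1DM.

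Of 223 named genes tested, 14 changed sign after length and GC trend removal: Cdkn2a -0.26, Lin9 0.17, Cdkn2b -0.10, Rif1 0.025, Fancf -0.55, Ifi35 -0.093, Eprs 0.16, Dars 0.10, Srebf1 -0.039, Cald1 0.073, Egfl7 -0.13, Lpl 0.20, Hoxb6 -0.27 and Cck -1.003. With the length trend alone removed, Fancf was at -0.12, Cck at -0.55 and Foxm1 at 0.092. Foxm1 was also at 0.016 with the classes removed, 0.024 without replicate 2 of G1TM, 0.033 without replicate 1 and 0.0036 without replicate 2 of G3TM. Cck was at -0.077 with quantile normalization, and at -0.17 without replicate 2 and 0.51 without replicate 1 of G1TM. Of 216 named genes called, 122 were called in all 15 fits that left out 1 library. The 2 planned count tests were not run, because the deposited unit is FPKM. Depth limits low genes: at 1 kilobase a single read was worth 0.0380 to 0.0679 FPKM in G3TM and 0.0412 and 0.0336 FPKM in G1TM libraries.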
